A study of Mus musculus with 22 samples.

Results

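The T-cell receptor beta (Tcrb) and gamma (Tcrg) loci were described in genomic DNA of thymocytes from Atm-deficient mice, with the chromosome on both sides of each locus as the comparison. Probes were taken by midpoint, between 39800000 and 42600000 of chromosome 6 for Tcrb and between 17500000 and 19800000 of chromosome 13 for Tcrg. The rule gave 593 probes of the 232626 placed on chromosomes 1 to 19, X and Y. Of these, 98 lay in the Tcrb core (40815000 to 41541000, 726 kb) and 21 in the Tcrg core (18518000 to 18733000, 215 kb). The Tcrb flanks held 107 probes on the left and 139 on the right, and the Tcrg flanks 122 and 106. Coordinates are those of the array files, and the sources used here do not state their genome build.

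Each of the 22 arrays compared Cy5-labelled DNA of 1 untreated Atm knockout mouse with Cy3-labelled DNA of wildtype thymocytes, on a 244A mouse comparative genomic hybridisation array. The DNA came from thymocytes of 8 Atm-deficient mice with thymic lymphoma, and from thymocytes of 14 Atm-deficient mice without macroscopic findings. Age, sex, strain and the Atm allele are not stated in the labels, nor is the number of wildtype mice behind the Cy3 DNA. Atm encodes a kinase that responds to DNA double-strand breaks, including those made during antigen receptor gene rearrangement.

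V(D)J recombination joins a V, a J and, at Tcrb, a D segment by cutting both ends of the intervening DNA, which is usually excised and lost as cells divide. At Tcrb most V segments lie upstream of the D, J and C segments, with trypsinogen genes in between, so that joining a V segment to D and J removes the trypsinogen genes from that chromosome. Tcrg holds V segments in several short clusters with their own J and C segments, and both loci are rearranged in immature thymocytes. The wildtype thymocytes had rearranged these loci too. A log2 ratio below 0 therefore means fewer copies of a sequence than in the wildtype DNA, not fewer than in unrearranged DNA. Likewise, a ratio above 0 means more copies than in the wildtype DNA, not necessarily more than in unrearranged DNA. The number of copies lost per cell and the share of cells that lost them cannot be told apart in DNA of a whole cell population.

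In the mouse RefSeq gene table (assembly GRCm38.p6, used for names and order only), 35 Tcrb V segments are listed, 13 of them pseudogenes. Of these, 33 lie between 2210010C04Rik and Try4, 1 lies before that stretch, and 1 (Trbv31) after Prss2. The 2 D segments, 14 J segments and 2 C regions lie between Prss2 and Ephb6. For Tcrg the table lists 7 V segments, 4 J segments and 4 C regions between Amph and Stard3nl. The array files named 71 of the 98 Tcrb core probes AK138971, a cDNA described as T-cell receptor beta, variable 13, and 20 of the 21 Tcrg core probes AK158622. Single V segments could therefore not be assigned to probes. No probe of either core was named after a V, D, J or C segment of its own.

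The probe sequences on which the results turn are given here, 5′ to 3′ as deposited on the array and in lower case. The first 4 lie on either side of the points where the deepest Tcrb losses began, and the next 3 on either side of the point where the Tcrb losses ended. The last 3 are the Tcrg probes with the lowest mean in lymphoma mice.
A_67_P05875490, chr6:41060390-41060449, last probe before the deep loss of lymphoma mouse 2: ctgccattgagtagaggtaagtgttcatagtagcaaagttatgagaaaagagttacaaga
A_67_P01312480, chr6:41071881-41071940, first probe of that loss: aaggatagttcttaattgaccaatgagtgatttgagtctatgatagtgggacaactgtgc
A_67_P05875545, chr6:41081321-41081380, last probe before the deep loss of lymphoma mouse 5: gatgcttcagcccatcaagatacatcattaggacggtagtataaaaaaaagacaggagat
A_67_P05875557, chr6:41087743-41087802, first probe of that loss: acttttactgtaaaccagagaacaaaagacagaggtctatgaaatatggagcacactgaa
A_67_P01312823, chr6:41461716-41461775, last probe of both deep losses: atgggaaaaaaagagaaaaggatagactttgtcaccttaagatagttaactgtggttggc
A_67_P01312844, chr6:41470682-41470741, last probe of most shallower losses: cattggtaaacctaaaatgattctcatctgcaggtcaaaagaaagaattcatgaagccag
A_67_P01312858, chr6:41476210-41476269, first probe past every Tcrb loss: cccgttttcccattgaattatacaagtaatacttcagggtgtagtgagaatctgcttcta
A_53_P151990, chr13:18556836-18556895, Tcrg: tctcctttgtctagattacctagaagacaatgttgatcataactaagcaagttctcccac
A_67_P07801212, chr13:18573255-18573314, Tcrg: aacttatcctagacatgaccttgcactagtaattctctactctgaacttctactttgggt
A_67_P07801435, chr13:18699117-18699172, Tcrg: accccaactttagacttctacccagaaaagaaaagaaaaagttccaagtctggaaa
Their GC content of 36.7% to 38.3% was close to the median of 36.7% over all placed probes. The heptamer CACAGTG of recombination signal sequences, searched on both strands as CACAGTG and CACTGTG, was in none of these 10 probes. It was in 1 of the 98 Tcrb core probes (1.02%) and 0 of the 21 Tcrg core probes, against 0.881% of all placed probes.

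Arrays differed in noise, and some stood apart. The noise SD between neighbouring probes ran between 0.152 and 0.372 in lymphoma arrays and between 0.134 and 0.546 in no-lymphoma arrays, with mice 3, 4 and 9 without lymphoma the noisiest. Over all autosomal probes, 8 of 231 pairs of arrays had a Pearson r under -0.3 (lowest -0.477), each involving lymphoma mouse 3 or 1 of these 3 mice. The labels give the same dye orientation for all arrays, and that orientation was kept. At Atm, probe A_67_P01935129 (chr9:53461029-53461088) had a log2 ratio of 1.17 ± 0.14 in lymphoma mice (SD, n = 8). It was -1.08, -0.72 and -0.63 on those labelled no-lymphoma mouse 1, 3 and 4, between 0.67 and 1.69 on 9 others, and 0.44 and 0.08 in no-lymphoma mice 5 and 6. Whether that probe lies in the targeted part of Atm is not stated. By scan day in the file headers the arrays fell into 6 batches, and the 3 arrays of opposite sign at this probe made up batch 2. Results are therefore also given without that batch, whose arrays are called by their labels. Not well above background were 4 Tcrb core probes in lymphoma mouse 2, 11 in lymphoma mouse 5, 3 in lymphoma mouse 1, and 1 on the array labelled no-lymphoma mouse 1. At Tcrg they were 3 core probes, all in lymphoma mouse 1. Ratios there are bounds.

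In lymphoma mice the Tcrb core ranged between a deep loss and a gain, while its flanks stayed near 0. The mean log2 ratio of the core minus that of the flanks was -1.68 in lymphoma mouse 2 and -1.39 in lymphoma mouse 5. It was -0.40, -0.36 and -0.38 in lymphoma mice 6, 7 and 8, and 0.19, 0.63 and 0.21 in lymphoma mice 1, 3 and 4. In mice without lymphoma the lowest value was -0.59, the median -0.24 and the highest 0.46, with 10 of 14 below 0. Above 0 were no-lymphoma mouse 2 and the 3 arrays of batch 2. The groups overlapped: the 2 lowest lymphoma mice lay below every no-lymphoma mouse, and lymphoma mouse 3 lay above every one.

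The losses lay mostly in the V array and the trypsinogen genes and stopped before the end of the locus. The exception on the left was no-lymphoma mouse 7, whose called loss began upstream of the V array, at 40850643, with a segment at -0.27 up to 41071940. The stretches of the core, cut at named genes after the values were seen, are given as a description. The 25 probes between Moxd2 and 2210010C04Rik (40815350 to 40965854), a stretch with trypsinogen-related genes upstream of most V segments, averaged 0.04 ± 0.05 in lymphoma mice and 0.00 ± 0.11 in mice without lymphoma (SD, n = 8 and 14, here and below). The 35 probes of the V array (40975917 to 41228002) averaged -0.59 ± 1.06 in lymphoma mice and -0.28 ± 0.38 in mice without lymphoma. The 27 probes between Try4 and Prss2 (41233655 to 41453117), where the pancreatic trypsinogen genes lie, averaged -0.83 ± 1.47 in lymphoma mice and -0.42 ± 0.62 in mice without lymphoma. The 11 probes after Prss2 (41461716 to 41535322), which hold the D, J and C segments, averaged 0.06 ± 0.20 in lymphoma mice and -0.10 ± 0.15 in mice without lymphoma. Under -0.25 in the trypsinogen stretch were 5 of 8 lymphoma mice and 10 of 14 no-lymphoma mice, and over 0.25 were 2 in each group. In the D, J and C end the corresponding counts under -0.25 were 0 of 8 lymphoma mice and 2 of 14 no-lymphoma mice.

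Of the named trypsinogen genes between the V array and the D segments, each had 1 probe, and each was below 0 in 5 or 6 of the 8 lymphoma mice. Prss2, which encodes a pancreatic trypsinogen, had a log2 ratio of -1.21 ± 1.98 in lymphoma mice (between -4.44 and 1.32) and -0.61 ± 0.65 in mice without lymphoma. Prss3 was at -1.12 ± 2.12 in lymphoma mice and -0.47 ± 0.83 in mice without lymphoma. Try4 was at -0.86 ± 1.53 in lymphoma mice and -0.62 ± 0.70 in mice without lymphoma. The other members, 1810049H19Rik (Try5), LOC436522 (trypsinogen 10), LOC436523 (trypsinogen 12), Try10l and Prss1, averaged between -0.85 and -0.65 in lymphoma mice and between -0.56 and -0.19 in mice without lymphoma. These genes are near-identical copies, so a probe may bind more than 1 of them and its level is uncertain. Upstream of the V array, 1700074P13Rik, 1810009J06Rik, BC048599 and Moxd2, a dopamine beta-hydroxylase-like monooxygenase gene, lay between -0.07 and 0.13 in lymphoma mice and between -0.08 and 0.07 in mice without lymphoma. 2210010C04Rik, the last named gene before the V array, was at -0.22 ± 0.23 in lymphoma mice and -0.03 ± 0.26 in mice without lymphoma. In the D, J and C end, BC034887, described as T-cell receptor beta, variable 13, was at 0.21 ± 0.20 in lymphoma mice and 0.23 ± 0.33 in mice without lymphoma, and AK137903, a thymus cDNA, at 0.14 ± 0.21 in lymphoma mice and -0.19 ± 0.35 in mice without lymphoma. At the bounds, the Moxd2 probes on either side of the core start were at -0.07 inside and -0.04 outside in lymphoma mice. The last probe inside the core end was at 0.07 and the first outside it, in the receptor kinase gene Ephb6, at 0.25 in lymphoma mice.

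Each array was divided into segments of at least 5 probes with a common level, and a segment at or beyond 0.25 was called a loss or a gain. Losses and gains are relative to the wildtype DNA. A called Tcrb loss was found in 6 of 8 lymphoma mice and 9 of 14 no-lymphoma mice, and a called gain in 3 of 8 lymphoma mice and 2 of 14 no-lymphoma mice. Neither count passed the test of a difference between the groups (two-sided Fisher exact test, adjusted p = 1 over 4 tests). Of the pairs of a Tcrb core probe and an array, 37.9% lay in a called loss in lymphoma mice and 37.9% in mice without lymphoma. The background over all autosomal probes was 3.78% in lymphoma arrays and 1.46% in no-lymphoma arrays. For gains the shares were 15.2% in lymphoma mice and 5.76% in mice without lymphoma, against a background of 8.31% in lymphoma arrays and 2.16% in no-lymphoma arrays.

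The depth of the loss separated lymphoma mice 2 and 5 from all others. In lymphoma mouse 2 the loss ran over 477 kb and 61 probes with a mean of -2.83, and in lymphoma mouse 5 over 471 kb and 60 probes with a mean of -2.37. Both losses had a shallow and a deep part. In lymphoma mouse 2 a segment at -0.51 between 40985274 and 41060449 was followed, from 41071881, by segments between -4.59 and -2.48, linear ratios between 0.0415 and 0.179. In lymphoma mouse 5 a segment at -0.49 between 40991145 and 41081380 was followed, from 41087743, by segments between -3.79 and -1.82, linear ratios between 0.0722 and 0.283. The first probe of the deep loss of mouse 2, A_67_P01312480, read -4.54 there and -0.09 in lymphoma mouse 5. The first probe of the deep loss of mouse 5, A_67_P05875557, read -3.92 in lymphoma mouse 2 and -3.77 in lymphoma mouse 5. The deep losses thus began 2 probes apart in the V array and ended at the same probe.

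Lymphoma mice 6, 7 and 8 had losses at 1 level, of -0.81, -0.79 and -0.65 over 399, 410 and 485 kb. Lymphoma mouse 4 had a loss of -0.62 over 81.2 kb of the V array (40979221 to 41060449), followed by a gain of 0.29 that ran through the rest of the core (41071881 to 41541182). Lymphoma mouse 3 had a gain of 1.13 between 41060390 and 41461775, and lymphoma mouse 1 a gain of 0.73 between 41042155 and 41119511, both with no called loss. The 9 called losses in mice without lymphoma averaged between -0.93 (mouse 9) and -0.35 (mouse 5) over their span. In no-lymphoma mice 7, 8, 10, 12 and 13 they deepened along the V array: in mouse 12 a segment at -0.30 between 40985274 and 41087802 was followed by one at -1.03 between 41093769 and 41470741. The lowest no-lymphoma segment, in mouse 11, was at -1.28, above every deep segment of lymphoma mice 2 and 5. That segment held only 5 probes, and its level rested in part on the last, A_67_P01312844, given below. The next lowest no-lymphoma segment, in mouse 10, was at -1.15. No-lymphoma mouse 2 had a gain of 0.46 over 80.8 kb of the V array, and the array labelled no-lymphoma mouse 1 gains of 0.36 and 0.94. No-lymphoma mouse 6 had a segment at -0.23, just short of a call, and 2 arrays of batch 2, labelled mouse 3 and 4 and among the noisiest, had no break on chromosome 6.

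The right ends of the Tcrb losses coincided and the left ends did not. Of the 15 arrays with a called loss, 11 (3 lymphoma and 8 no-lymphoma) had their last lost probe at 41470741. In 3 more (lymphoma mice 2 and 5, no-lymphoma mouse 9) it was the preceding probe, at 41461775, and in lymphoma mouse 4 the loss ended within the V array. The probe between those ends, A_67_P01312844, read 0.85 in lymphoma mouse 2 and -0.03 in lymphoma mouse 5, against -0.97, -1.12 and -1.25 in lymphoma mice 6, 7 and 8. It ran, in mice without lymphoma, between -3.36 (mouse 11) and 1.301, with a median of -0.66. The next probe, A_67_P01312858, was at 0.22 ± 0.10 in lymphoma mice and 0.17 ± 0.17 in mice without lymphoma. The losses began at 8 different probes, and 6 of them (2 lymphoma and 4 no-lymphoma) began at 40985274.

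The difference between the group means at Tcrb lay within the spread between mice. Core minus flanks averaged -0.40 ± 0.79 in lymphoma mice and -0.21 ± 0.34 in mice without lymphoma, a difference of -0.19 (exact two-sided permutation test over 319770 splits, p = 0.456, adjusted p = 0.912 over both loci). Without lymphoma mouse 2 the difference was -0.0029, the nearest to 0 when any single mouse was left out. With normexp background correction it was 0.069 and with the median over probes 0.012. Permuted within scan batches, the difference was -0.38 (p = 0.25, 288 arrangements). The core without subtraction of the flanks averaged -0.42 ± 0.80 in lymphoma mice and -0.23 ± 0.33 in mice without lymphoma (exact permutation test, p = 0.432, adjusted p = 0.709). The flanks averaged -0.028 ± 0.025 in lymphoma mice and -0.018 ± 0.037 in mice without lymphoma, a difference of -0.0095 (exact permutation test, adjusted p = 0.53). It passed the threshold at -0.026 without no-lymphoma mice 3, 4 and 9, the noisiest arrays (exact permutation test, adjusted p = 0.0463).

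Against 0, the level of the wildtype DNA, core minus flanks at Tcrb had p = 0.25 in lymphoma mice (adjusted p = 0.333) and p = 0.0398 in mice without lymphoma (adjusted p = 0.159 over 4 tests), by exact two-sided sign-flip permutation tests that leave out the spread of the wildtype DNA. Without scan batch 2, whose arrays go against the others at the Atm probe, no-lymphoma mice averaged -0.34 with an adjusted p of 0.00977 by the same exact test, with 10 of 11 below 0. Leaving out the array labelled mouse 1 alone gave -0.26 (exact permutation, adjusted p = 0.041).

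The level varied more along the Tcrb core than along its flanks. The SD over 100-kb bins was 0.61 ± 0.52 in lymphoma mice (lowest 0.15, median 0.38, highest 1.57) and 0.34 ± 0.13 in mice without lymphoma (lowest 0.10, median 0.38, highest 0.50). In the flanks it was 0.084 ± 0.017 in lymphoma mice and 0.078 ± 0.051 in mice without lymphoma. The groups' core values overlapped, with equal medians to the given precision, and their difference of 0.27 had p = 0.072 (exact two-sided permutation test, adjusted p = 0.144).

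The Tcrb level moved with the scan batch. In the trypsinogen stretch the 3 lymphoma mice and the no-lymphoma mouse of batch 1 were all above 0, lymphoma mice 1, 3 and 4 at 0.21, 1.08 and 0.27, and no-lymphoma mouse 2 at 0.14. In batch 3, lymphoma mice 2 and 5 were at -3.16 and -2.76, and no-lymphoma mice 5 and 6 at -0.30 and -0.25. In batch 5 the lymphoma mouse was at -0.75 and the 3 no-lymphoma mice between -0.77 and -0.38, and in batch 6 the 2 lymphoma mice were at -0.79 and -0.75 and the no-lymphoma mouse at -0.95. Batch 2, which holds no lymphoma mouse, was at 0.88, 0.31 and 0.22 on the arrays labelled mouse 1, 3 and 4, and batch 4, with 4 no-lymphoma mice only, between -1.16 and -0.90. Core minus flanks differed between lymphoma and no-lymphoma mice by -1.38 within batch 3 and -0.053 within batch 5, and, opposite in sign to the difference over all mice, by 0.15 within batch 1 and 0.14 within batch 6. Each of these batches holds 3 or 4 mice. The part of the batch in these levels was not tested.

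In windows of 10 probes tiled over all autosomes, 16.4% of 21998 windows differed between lymphoma and no-lymphoma mice (limma, adjusted p under 0.05; 3597 windows, 7545 unadjusted), 7.93% higher and 8.42% lower in lymphoma mice. Of the 9 windows inside the Tcrb core 0 were called (0 unadjusted). Of its 22 flank windows 1 was called, lower in lymphoma mice, against the 8.42% of all windows. The lowest core window, chr6:41180369-41236791 across the end of the V array and Try4, averaged -0.94 ± 1.73 in lymphoma mice and -0.47 ± 0.66 in mice without lymphoma (limma, difference -0.47, adjusted p = 0.498). Its lowest, median and highest values were -3.80, -0.82 and 1.35 in lymphoma mice and -1.16, -0.58 and 0.99 in mice without lymphoma. The highest core window, chr6:40879910-40944070 upstream of the V array, was at 0.05 ± 0.07 in lymphoma mice and -0.01 ± 0.19 in mice without lymphoma. From left to right along the core, the 9 windows averaged 0.04, 0.05, -0.13, -0.30, -0.90, -0.94, -0.76, -0.80 and -0.54 in lymphoma mice, and 0.02, -0.01, -0.07, -0.13, -0.43, -0.47, -0.31, -0.46 and -0.30 in mice without lymphoma. The means of both groups were lower from the middle of the V array on, up to the window that ends in the D, J and C end. Within scan batch 3, which holds lymphoma mice 2 and 5, 5 of the 9 core windows were called, a fit with 2 mice in each group. The share of all windows called in that fit is not given, so that count has no background to be set against.

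Against 0, 4 of the 9 Tcrb core windows were below -0.25 in lymphoma mice with an adjusted limma p under 0.05, against 3.34% of all windows, and 0 were above 0.25, against 7.38%. In no-lymphoma mice 0 of 9 were (0 unadjusted), against 0.0182% of all windows. The limma fit took 1 spread for both groups. The SD of the lowest core window was 1.73 in lymphoma mice and 0.66 in mice without lymphoma. The limma p in lymphoma mice thus rests on a spread smaller than their own. The counts of the groups can therefore not be set against each other. Without lymphoma mouse 2, 5, 6 or 7 the count in lymphoma mice was 0, and without lymphoma mouse 8 it was 1. Without no-lymphoma mouse 5, 6, 8 or 14 the count in lymphoma mice was 2. The spread between mice was large in these windows: the SD in lymphoma mice had a median of 0.89 over the 9 core windows and 0.064 over the 22 flank windows, against 0.102 over all windows. The SD in mice without lymphoma was 0.46 in the core and 0.074 in the flanks, against 0.113 over all windows. The lowest core window ranked 2 of 21998 by SD in lymphoma mice and 37 in mice without lymphoma. The 3 windows of chromosome 6 most like it over the 22 arrays all lay in the Tcrb core, with Pearson r of 0.995, 0.989 and 0.983, and the most alike outside the core had an r of 0.695.

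By single probe, 0 of 98 Tcrb core probes differed between the groups (limma, 2 at an unadjusted p under 0.05), against 3.14% of 220065 autosomal probes. The 3 probes with the lowest means in lymphoma mice lay at 41432767, 41211174 and 41319542 and averaged between -1.23 and -1.22 there, against -0.51, -0.32 and -0.42 in mice without lymphoma. The probe with the lowest adjusted p, A_67_P05876307 (chr6:41502506-41502565, in the D, J and C end), went the other way. Its lowest, median and highest values were -0.31, 0.65 and 1.03 in lymphoma mice and -1.17, -0.20 and 0.49 in mice without lymphoma, a difference of 0.72 ± 0.22 (SE, limma adjusted p = 0.0785). It was above 0 in 6 of 8 lymphoma mice and 6 of 14 no-lymphoma mice.

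At Tcrg the means of the core hid losses at a few probes. Core minus flanks was -0.72 in lymphoma mouse 2, while the other 7 lymphoma mice lay between -0.18 and 0.19. The lowest, median and highest values without lymphoma were -0.33, -0.18 and 0.41, with 10 of 14 below 0. The highest 2, at 0.41 and 0.31, were batch 2 arrays, labelled mouse 3 and 4. The groups overlapped, and lymphoma mouse 2 lay below every no-lymphoma mouse.

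Deep losses at Tcrg fell on 3 probes, with a different set of mice at each. A_53_P151990, 38 kb from the core start, read -2.08, -4.03 and -4.37 in lymphoma mice 1, 2 and 6 and between -0.85 and 0.62 in the other 5 lymphoma mice. Without lymphoma, mouse 2 read -3.95 and the other 13 between -1.64 and 0.44. A_67_P07801212, 55 kb from the core start, read -3.32 and -4.003 in lymphoma mice 1 and 2, but 1.71 in lymphoma mouse 6. Without lymphoma, mice 2 and 11 read -3.43 and -2.04, and the arrays labelled mouse 1 and 3 read 1.67 and 1.24. A_67_P07801435, 181 kb from the core start, read -4.30, -2.63 and -2.61 in lymphoma mice 2, 4 and 8 and between -1.12 and 1.21 in the other 5. Its lowest value in mice without lymphoma was -2.04, its median -0.56 and its highest 2.06, with 11 of 14 below 0. Group means at these 3 probes ran between -1.27 and -0.90 in lymphoma mice and between -0.81 and -0.63 in mice without lymphoma, with SDs of at least 1.83 in lymphoma mice and of at least 1.10 in mice without lymphoma. In lymphoma mouse 1 all 3 probes were not well above background, so that its values there are bounds.

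The other 18 Tcrg core probes stayed nearer to 0. Their 144 values in lymphoma mice ran between -1.09 and 0.85 with a median of -0.016, and their 252 values in mice without lymphoma between -1.02 and 1.10 with a median of -0.063. Below -1 lay 1 value in each group, at chr13:18589803-18589862 in lymphoma mouse 2 and at chr13:18724876-18724935 in no-lymphoma mouse 14. The 2 values above 1 came from the array labelled mouse 3. The loss of lymphoma mouse 2 thus spread over neighbouring probes, while those of lymphoma mice 4 and 8 at A_67_P07801435 stood alone.

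Called Tcrg losses were found in 3 of 8 lymphoma mice and 6 of 14 no-lymphoma mice, and gains in 0 of either group (two-sided Fisher exact test, adjusted p = 1). Several of these rested on 1 or 2 deep probes, so that their extents follow in part from the minimum of 5 probes per segment. The counts, too, depended on those probes. The share of mice with a call, lymphoma minus no-lymphoma, was -5.36 percentage points with all probes. Without dim probes, which removes the probes that carry the losses, it was 12.5 points (two-sided Fisher exact test, p = 0.364). Lymphoma mouse 1 had a loss of -1.198 over 44.5 kb (18528838 to 18573314), whose first 2 probes read 0.02 and 0.07 and whose deepest 2 are the bounds given above. Lymphoma mouse 2 had a loss of -2.16 between 18550151 and 18604797, with all 5 probes at or below -0.68. A second one of -0.76 between 18627328 and 18699172 averaged -0.25 without A_67_P07801435. Lymphoma mouse 6 had a called segment at -0.70 over 10 probes, between 18492200, before the core, and A_53_P151990, at 18556895. Its other 5 core probes read between -0.24 and 0.15, its first probe, in the flank, -1.90, and without that probe and A_53_P151990 the mean was -0.096. No-lymphoma mouse 2 had a loss of -1.65 over 70.5 kb (18556836 to 18627384), and the 3 probes other than the deepest 2 averaged -0.29. The other 5, in no-lymphoma mice 7, 8, 10, 12 and 13, lay between -0.47 and -0.42 over 142 to 168 kb. Without their 2 lowest probes they averaged between -0.30 and -0.25, with another of the 3 deep probes given above still among those left. Of these 5 losses 4 ended at 18699172, as did the loss of lymphoma mouse 2. That position is the end of A_67_P07801435, the lowest probe in all 5 and in lymphoma mouse 2. Of the pairs of a Tcrg core probe and an array, 14.3% lay in a called loss in lymphoma mice and 24.1% in mice without lymphoma, against the autosomal background of 3.78% in lymphoma arrays and 1.46% in no-lymphoma arrays. The single deep probe of lymphoma mice 4 and 8 gave no call.

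At Tcrg, too, the difference between the group means lay within the spread between mice. Core minus flanks averaged -0.10 ± 0.28 in lymphoma mice and -0.09 ± 0.23 in mice without lymphoma, a difference of -0.0063 (exact two-sided permutation test, p = 0.956, adjusted p = 0.956). The sign of that difference changed under many settings: it was 0.021 with scan batch as a block and 0.091 without scan batch 2. The core alone averaged -0.17 ± 0.30 in lymphoma mice and -0.13 ± 0.23 in mice without lymphoma (exact permutation test, adjusted p = 0.709). Within scan batches 1, 3, 5 and 6 the difference in core minus flanks was 0.20, -0.31, 0.19 and 0.13. The flanks averaged -0.073 ± 0.041 in lymphoma mice and -0.035 ± 0.067 in mice without lymphoma, a difference of -0.038 (exact permutation test, adjusted p = 0.34). That difference passed the threshold at -0.054 without no-lymphoma mouse 5 (exact permutation test, adjusted p = 0.00363) and at -0.056 with the left flank alone (exact permutation test, adjusted p = 0.00891). The SD over 50-kb bins of the core was 0.33 ± 0.23 in lymphoma mice and 0.24 ± 0.15 in mice without lymphoma (exact permutation test, p = 0.293), against 0.098 ± 0.031 in lymphoma mice and 0.14 ± 0.08 in mice without lymphoma in the flanks. Against 0, core minus flanks had p = 0.445 in lymphoma mice and p = 0.165 in mice without lymphoma (exact sign-flip permutation tests). Without scan batch 2 no-lymphoma mice averaged -0.19, with an adjusted p of 0.00977 by the same exact test.

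Of the 2 windows inside the Tcrg core 0 were called between the groups (limma, 0 unadjusted), against 16.4% of all windows. So few windows cannot be told from that share. Of the 21 flank windows 1 was called, lower in lymphoma mice, against 8.42% of all windows. The window across the left of the core (18522456 to 18648941) averaged -0.24 ± 0.45 in lymphoma mice and -0.14 ± 0.27 in mice without lymphoma, and the right one (18655659 to 18724935) -0.11 ± 0.21 in lymphoma mice and -0.10 ± 0.28 in mice without lymphoma. By single probe 0 of 21 were called, against 3.14% of 220065 autosomal probes (limma, 1 at an unadjusted p under 0.05). That probe, A_67_P07801395 (chr13:18670586-18670645), had its lowest, median and highest values at -0.13, 0.27 and 0.57 in lymphoma mice and at -0.77, -0.17 and 0.35 in mice without lymphoma. The difference was 0.44 ± 0.12 (SE, limma adjusted p = 0.0535), and the probe was above 0 in 7 of 8 lymphoma mice and 4 of 14 no-lymphoma mice. The Amph probe inside the core start, in the gene of a protein of endocytosis, was at -0.03 in lymphoma mice and -0.20 in mice without lymphoma. The next probe outward was at 0.02 in lymphoma mice and -0.10 in mice without lymphoma. At the other bound the last core probe was at -0.04 in lymphoma mice and -0.06 in mice without lymphoma. The first probe outside it, in Stard3nl, was at -0.15 in lymphoma mice and 0.06 in mice without lymphoma.

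Across no-lymphoma mice the levels of both loci went together, but their deviations from the scan batch means, pooled over batches, did not. Core minus flanks at Tcrb and at Tcrg had a Pearson r of 0.756 (permutation p = 0.00203, adjusted p = 0.00406) and a Spearman rho of 0.815 (adjusted p = 0.00264) over 14 mice. Without the 2 mice farthest from the median at Tcrb r was 0.965. As deviations from the mean of the scan batch, over 12 mice of 4 batches, r was -0.027 (permutation p = 0.959 over 1728 arrangements). The batches went different ways. In batch 5, no-lymphoma mice 7, 11 and 14 were at -0.50, -0.31 and -0.18 at Tcrb. At Tcrg they were at -0.33, -0.17 and -0.06. In batch 2 the arrays labelled mouse 1, 3 and 4 were at 0.46, 0.17 and 0.14 at Tcrb. At Tcrg they were at 0.07, 0.41 and 0.31. Batch 4 went the way of batch 5, and batch 3, of mice 5 and 6, the way of batch 2. In the 8 lymphoma mice r was 0.565 (exact p = 0.149, adjusted p = 0.199) and rho 0.5 (exact p = 0.216), and r without the 2 farthest mice was 0.404. It was -0.053 without lymphoma mouse 2 and 0.856 without lymphoma mouse 5 (exact permutation, adjusted p = 0.0347), so that it rests on those mice.

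Within mice, Tcrb was set against Tcra/Tcrd, another T-cell receptor locus rearranged in thymocytes, and against Igk, a light chain locus rearranged in B cells. The Tcrb core minus Tcra/Tcrd (147 probes) was -1.58 ± 1.42 in lymphoma mice (SD), lower at Tcrb in 7 of 8, where Tcra/Tcrd itself averaged 1.16 ± 0.83. The exact two-sided sign-flip permutation test gave p = 0.0156 and an adjusted p of 0.0625 over 4 tests. In mice without lymphoma the Tcrb core minus Tcra/Tcrd was -0.031, lower in 8 of 14 (exact permutation p = 0.813). The Tcrb core minus Igk (239 probes) was -0.32 in lymphoma mice, lower in 5 of 8 (exact permutation p = 0.352), and -0.18 in mice without lymphoma, lower in 10 of 14 (exact permutation p = 0.0732). Igk varied little, at -0.10 ± 0.06 in lymphoma mice and -0.05 ± 0.08 in mice without lymphoma.

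Genes whose products assemble with or rearrange these receptors were listed beside the loci. Of 8 genes, 3 had the 3 probes needed for the test, and 0 of them were called (limma), against 9.19% of 13021 genes. The median difference of the 3 was 0.15, against 0.048 over all genes. Cd247, the CD3 zeta chain, was at 0.45 ± 0.29 in lymphoma mice and 0.09 ± 0.34 in mice without lymphoma (limma, difference 0.36, adjusted p = 0.0982). Its adjusted limma p ran between 0.0196 and 0.202 when any single mouse was left out, and passed without no-lymphoma mouse 2 (0.0349) or 11 (0.0196). Cd3e, another CD3 chain, was at 0.22 ± 0.18 in lymphoma mice and 0.07 ± 0.41 in mice without lymphoma (limma, adjusted p = 0.521). Dntt, which adds nucleotides at the joins, was at 0.03 ± 0.08 in lymphoma mice and 0.00 ± 0.09 in mice without lymphoma (limma, adjusted p = 0.72). The untested Ptcra (the pre-T-cell receptor alpha chain), Cd3d, Cd3g, Rag1 and Rag2 (the recombinase subunits) averaged between 0.08 and 0.21 in lymphoma mice and between -0.04 and 0.12 in mice without lymphoma.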

How the data were processed

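Per the labels' protocols, genomic DNA was digested by AluI and RsaI, then labelled: Cy5 for Atm-deficient and Cy3 for wildtype DNA. The authors extracted spot intensities with Feature Extraction 9.1.3.1 (protocol CGH-v4_91), per the file headers, as background-subtracted and dye-normalised processed signals; the submitters' processing notes name version 9.1. The deposited log10 ratios in the value table equal those of the scanner files (largest difference 0). The log2 ratio of red over green processed signal was taken, outlier-flagged spots (3 to 111 per array) were removed, 238202 spots were averaged to 235402 probes, and each array was centred on its autosomal median, without loess. Median signals were 146 to 226 in green and 146 to 397 in red, and 0.089% to 1.54% of probes were not well above background. Nothing states that mice came from separate litters, so p-values measure the spread between these samples.

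Single values per mouse were compared by exact permutation tests with Benjamini-Hochberg adjustment within each family. Windows, probes and genes with at least 3 probes were fitted over all autosomes with limma 3.58.1 in R 4.3.3. Segments were found by optimal partitioning in Python 3.11.15 (penalty 3 times log n times the noise variance), tested on simulated data. Alternatives covered centring, the deposited ratio, normexp (on median signals, offset 50), probe filters, flanks of 500 kb, GC content, segment and window settings, scan batch and left-out arrays. Named were all genes in the cores, the 3 lowest and highest probes and those of lowest adjusted p per locus, the probes at the bounds, the extreme windows and the 3 most like the lowest, and the listed genes. The members and lists were chosen with earlier results of these data known.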

Additional observations from a re-analysis of the deposited data

Results flagged for a closer look

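Lymphoma mouse 2 stood apart from the other lymphoma mice at Tcrg. Its Tcrg core level of -0.852 lay far below those of the other 7 lymphoma mice, with a gap to the nearest of 0.684 of the group's whole range, and its core minus flanks of -0.722 likewise, with a gap of 0.590. Both exceed Dixon's 95% critical value for 8 samples. Of 12 values tested in lymphoma mice these 2 exceeded it, and both rest on the same core probes. Chance exceeds it in about 1 in 20 groups. The group without lymphoma, with 14 mice, was not tested.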

How the results depend on the processing

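Over all results and alternatives, 1133 values kept their direction and their side of the threshold, 78 changed direction, 24 moved, 29 newly passed the threshold and 3 no longer passed it. Each value below is lymphoma minus no-lymphoma unless stated, and the causes of the changes were not tested except where given. The GC correction, the limit on outlying probes, segments of at least 2 probes, the deviations from the batch mean, and every alternative for Tcra/Tcrd, Igk, the relation between the loci and the listed genes were chosen after seeing the data. At Tcrb, core minus flanks turned to 0.012 with the median over probes, 0.069 with normexp, 0.15 within scan batch 1 and 0.14 within batch 6. The Tcrb core level turned to 0.051 with normexp, 0.14 within batch 1 and 0.11 within batch 6. Unevenness of the Tcrb core turned to -0.038 within batch 5 and -0.040 within batch 6. The Tcrb flank level turned to 0.022 with centring on the mode and likewise on the chromosome median, 0.0025 with the right flank alone and 0.0015 within batch 5. It passed the threshold at -0.043 with the sign turned for no-lymphoma mice 3, 4 and 9 and -0.026 without them. Against 0, Tcrb core minus flanks turned to 0.34 in lymphoma mice of batch 1. In mice without lymphoma it passed the threshold at -0.10 with normexp, -0.32 with the sign turned for batch 2, -0.34 without batch 2 and -0.38 with the 5 arrays of low Atm signal (no-lymphoma mice 1, 3, 4, 5 and 6) left out, and ran between -0.26 and -0.18 when any single mouse was left out.

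At Tcrg, core minus flanks turned positive at 0.10 with the median over probes, 0.015 with normexp, 0.012 with the left flank alone, and 0.021 with scan batch as a block. It was 0.20, 0.19 and 0.13 inside batches 1, 5 and 6. Values were 0.11 with the sign turned for batch 2 and 0.072 with it turned for no-lymphoma mice 3, 4 and 9. It was 0.091 without batch 2, 0.13 without those 5 arrays, 0.068 without no-lymphoma mice 3, 4 and 9, and 0.012 without the noisiest array of each group. Over single mice left out it ran between -0.047 and 0.083 (without lymphoma mouse 2). The Tcrg core level turned to 0.054 with the median over probes, 0.0012 with normexp, 0.014 with scan batch as a block, and 0.22, 0.16 and 0.088 inside batches 1, 5 and 6. Turning the signs as above gave 0.064 and 0.022, and it was 0.059 without batch 2, 0.083 without the 5 arrays and 0.032 without no-lymphoma mice 3, 4 and 9, and between -0.077 and 0.054 over single mice left out. Leaving out dim probes and leaving out probes with a mean beyond 0.5 gave the same values at Tcrg, since both remove the probes that carry the losses: core minus flanks 0.056, core level 0.018, unevenness -0.058, and core minus flanks against 0 at 0.064 in lymphoma mice and 0.0084 in mice without lymphoma. Tcrg unevenness was -0.28 within batch 1. Against 0, Tcrg core minus flanks turned to 0.076 with the median over probes and 0.023 within batch 1 in lymphoma mice, and to 0.0010 within batch 3 in mice without lymphoma. In mice without lymphoma it passed the threshold at -0.20 and -0.17 with the signs turned, -0.19 without batch 2, -0.23 without the 5 arrays and -0.16 without no-lymphoma mice 3, 4 and 9. The Tcrg flank level turned to 0.018 within batch 1 and 0.013 within batch 3, and passed the threshold at -0.056 with the left flank alone, -0.050 without the 5 arrays and -0.054 without no-lymphoma mouse 5.

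The share of mice with a called Tcrb loss, 10.7 percentage points higher in lymphoma mice, turned to -6.82 points without batch 2 and -13.9 points without the 5 arrays. For Tcrg it turned to 5.36 points with normexp, 12.5 without dim probes, without probes beyond 0.5 and with at least 2 probes per segment, 19.6 with at least 3, 8.93 with a penalty of 5 and 50 within batch 3. The Fisher test passed at no setting for either. Called Tcrb core windows numbered 5 within batch 3 and 1 with windows of 5 probes. The shares of all windows at the alternative settings are not given, so these window counts and the next have no background. Windows below 0 in lymphoma mice, 4 of 9, numbered 2 with centring on the mode, 1 on the chromosome median, 0 with normexp, 2 without dim probes, 0 without probes beyond 0.5, 0, 7, 0 and 0 within batches 1, 3, 5 and 6, 1 without the 5 arrays and 2 without no-lymphoma mice 3, 4 and 9, and between 0 and 6 over single mice left out. For Tcrg the count was 1 with windows of 5 probes and 0 to 1 over single mice left out. In lymphoma mice r between the loci was 0.83 with the median over probes, past the threshold, and between -0.053 (without lymphoma mouse 2) and 0.86 over single mice left out. In mice without lymphoma r was 0.31 with the sign turned for batch 2, 0.65 without it and 0.65 without the 5 arrays, each no longer past the threshold. As pooled deviations from the batch means it was -0.027. Tcrb minus Tcra/Tcrd in lymphoma mice passed at -1.15 with normexp and -1.69 without dim probes. It passed at an unchanged -1.58 with batch 2 turned or left out and without the 5 arrays, where the other tests of the family changed. It ran between -1.86 and -1.25 over single mice left out. In mice without lymphoma it turned to 0.38 without probes beyond 0.5 and 0.014 with mice 3, 4 and 9 turned, and ran between -0.12 and 0.021. Tcrb minus Igk in mice without lymphoma passed at -0.31 with batch 2 turned, -0.31 without it and -0.33 without the 5 arrays, and ran between -0.22 and -0.15. Dntt turned to -0.012 with normexp. No paired analysis was possible because replicate numbers were given in accession order and pair no mice. The number of arrays, and probes near background in deep losses, limit the precision.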
